A study of Mus musculus with 21 samples.

Results

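A group of 7 protein-coding genes of a mouse red cell differentiation course were followed: Mmp13, Fam180a, Sstr5, Fbxo41, Tbata, Cald1 and Tbx4. They had been picked by symbol, as genes with hardly any counts before differentiation and higher values from 36 h on that are not effectors of the interferon response. These are 7 of the 22483 genes in the deposited tables and of the 12360 genes with enough counts to be tested. The values that chose them are the levels over the time course, so those levels are given as a description with no test. The comparison of 12 h with and without an inhibitor of heme synthesis played no part in the choice and was tested.

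Polyadenylated RNA was sequenced, with strand kept, from MEDEP cells, erythroid progenitors grown from mouse embryonic stem cells, all of the BRC5 line. The 0 h cells were proliferating in stem cell factor and dexamethasone, a glucocorticoid. For every later group both were removed and 4 U/ml erythropoietin (Epo), the hormone of red cell production, was given for 12, 24, 36, 48 or 72 h, and 1 further group had 12 h of Epo with succinyl acetone (SA), which blocks heme synthesis. There were 3 biological replicates in each of the 7 groups, all of this 1 line. Library totals lay between 16.7 and 39.3 M estimated counts. All 10 erythroid markers used here (4 globin genes, Alas2, Slc4a1, Klf1, Gata1, Epor and Tfrc) had at least 10 counts in every library, and their summed level was 1002 to 1236 CPM (counts-per-million of scaled library size) at 0 h and 585144 to 922432 CPM at 72 h.

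As red cell precursors mature, most transcripts are lost while globin and a limited set of late transcripts take up a growing share of the RNA. None of the 7 genes belongs to the usual list of red cell genes. Mmp13 codes for collagenase 3, a secreted protease that cuts fibrillar collagen and is best known from cartilage and bone. Sstr5 codes for a somatostatin receptor that couples to inhibitory G proteins and lowers cyclic AMP. Fbxo41 codes for an F-box protein, the part of an SCF (Skp1, cullin, F-box) ubiquitin ligase that binds the substrate, and is known from neurons. Tbata, named after thymus, brain and testis, codes for a protein described as an inhibitor of neddylation, the attachment of the ubiquitin-like protein Nedd8 to cullins. Cald1 codes for caldesmon, which binds actin, tropomyosin and myosin, and Tbx4 for a T-box transcription factor of hindlimb and lung development.

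Promoter sequences stood in the RefSeq table (build GRCm38.p6) for 6 of the 7 genes, in 7 windows of 250 bases before a start site. Both strands of each window were searched for 4 motifs, and no 2 matches overlapped. Erythroid GATA factors bind the letters AGATAA. The erythroid factor Klf1 binds CACCC. Fos and Jun proteins bind TGANTCA, the AP-1 site. An interferon-type element was taken as a pair of GAAA with any 2 bases between them. AGATAA, present in 9.99% of 32851 RefSeq windows of this length, was in none of the 7. TGANTCA, in 6.75% of all windows, was in 3: those of Mmp13 and Fam180a and the second start site of Cald1. The interferon-type element, in 2.98% of all windows, was in that of Mmp13. CACCC, in 52.0% of all windows, was once each in that of Mmp13 and in both of Cald1, and 2 times each in those of Fbxo41 and Tbx4. The windows of the 3 genes with an AP-1 match are shown 5′ to 3′ on the strand of the gene, with the 2 start sites of Cald1 set together, and capitals mark every match of the 4 motifs, whichever strand it was on. A match is a run of letters and does not show that a factor binds there. The Mmp13 window is chr9:7272264-7272513 on the plus strand, that of Fam180a is chr6:35326142-35326391 on the minus strand, and those of Cald1 are chr6:34598254-34598503 and chr6:34709194-34709443 on the plus strand.
Mmp13: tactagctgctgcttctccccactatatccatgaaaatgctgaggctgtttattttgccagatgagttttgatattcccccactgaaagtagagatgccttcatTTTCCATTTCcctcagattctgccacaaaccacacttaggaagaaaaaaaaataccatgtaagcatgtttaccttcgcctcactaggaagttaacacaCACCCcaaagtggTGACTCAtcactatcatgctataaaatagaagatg
Fam180a: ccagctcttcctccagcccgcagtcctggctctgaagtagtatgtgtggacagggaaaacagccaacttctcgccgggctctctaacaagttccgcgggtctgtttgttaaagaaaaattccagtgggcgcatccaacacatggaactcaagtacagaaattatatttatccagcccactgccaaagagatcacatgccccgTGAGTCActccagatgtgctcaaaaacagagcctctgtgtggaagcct
Cald1 start site 1: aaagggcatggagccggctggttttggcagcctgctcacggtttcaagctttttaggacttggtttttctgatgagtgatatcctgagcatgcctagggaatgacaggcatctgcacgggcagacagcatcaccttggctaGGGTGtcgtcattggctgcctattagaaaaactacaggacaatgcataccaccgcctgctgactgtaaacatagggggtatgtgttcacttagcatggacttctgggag
Cald1 start site 2: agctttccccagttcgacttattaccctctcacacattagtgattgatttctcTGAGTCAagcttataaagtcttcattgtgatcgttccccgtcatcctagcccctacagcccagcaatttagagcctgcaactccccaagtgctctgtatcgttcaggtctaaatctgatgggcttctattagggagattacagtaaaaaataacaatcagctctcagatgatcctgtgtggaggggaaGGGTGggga

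Levels are given on 2 scales that part strongly late in the course. TPM (transcripts-per-million) are per length and relative to all RNA of a library, globin included, while normalized CPM is scaled by TMM (trimmed mean of M values), so that the middle of the tested genes stays in place. The median tested gene moved by -0.03 (log2) from 24 to 36 h, -0.07 from 36 to 48 h, -0.05 from 48 to 72 h and -0.13 from 0 to 72 h on the CPM scale. On the TPM scale the same medians were -2.10, -0.69, -0.77 and -3.88. A gene can therefore be higher on 1 scale and overlap on the other, and both are stated. The values come from whole cultures, in which more cells with a transcript and more of it per cell cannot be told apart.

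Libraries of 1 group differed by more than sampling noise in every pair. At 48 h, replicate 3 stood apart from replicates 1 and 2, with a chi-square per gene of 152 and 135 against 22.9 between those 2, and with 26.0% of its counts in globin genes against 27.8 and 28.7%. At 36 h, replicate 1 had a summed level of 17 stromal markers (collagens and other fibroblast genes, without Col5a1) of 43.2 normalized CPM, where replicates 2 and 3 had 0.675 and 1.09, and 14 of these 17 markers had at least 10 counts in it against 0 in the others. At 72 h replicate 3 was the most distant, with 213 and 270.2 per gene from replicates 1 and 2 against 85.5 between those, and replicate 1 had the lowest globin share, 31.7% against 36.9 and 37.0%.

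The label of near silence at 0 h held for 4 of the 7 genes. Sstr5 and Fbxo41 had 0 counts over the 3 libraries, Fam180a 1 and Mmp13 3, and such counts were common, since 9120 of the 22483 genes had 3 or fewer there. Of those 9120, 406 had enough counts later to be tested. Cald1 had 11 counts at 0 h, Tbx4 14 and Tbata 85. Except for Tbata, no gene of the 7 reached 10 counts in any library before 36 h, so that passing the count filter already required late counts. A rise from 36 h on also did not hold for all: Cald1 was high at 72 h alone, apart from the 36 h library with stromal transcripts, and Tbx4 at 36 h overlapped with 24 h. Its 48 h libraries were above those of 0 h by CPM (4.9-fold) but overlapped with them by TPM.

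**Figure D1:**
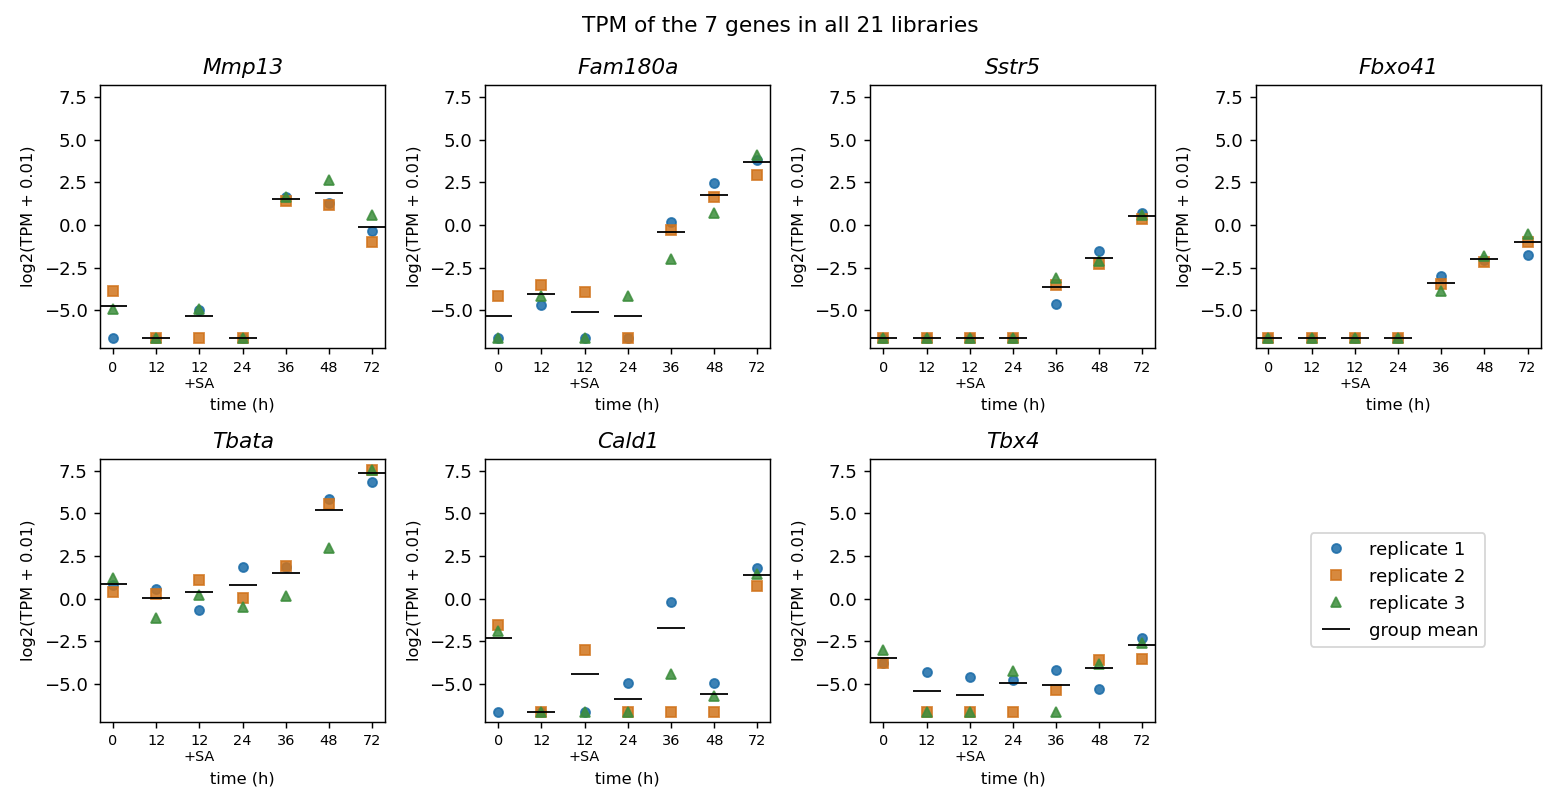
Each panel shows 1 gene, with log2(TPM + 0.01) on the vertical axis and the group on the horizontal axis; points are libraries and black lines the mean TPM of 3 replicates. Mmp13 was highest at 36 and 48 h, whereas the other 6 genes were highest at 72 h, up to 187 TPM for Tbata.

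From 24 to 36 h, 5 of the 7 genes (Mmp13, Fam180a, Sstr5, Fbxo41 and Tbata) were higher in all 3 libraries than in any at 24 h by normalized CPM, and 4 of the 7 by TPM. The shares of all tested genes that did so were 35.5% by CPM and 5.36% by TPM. From 36 to 48 h the same count was 5 by CPM, beside 20.7% of all genes, and 4 by TPM, beside 3.7%. From 48 to 72 h 6 were higher on both scales, beside 23.0% by CPM and 5.02% by TPM, and Mmp13 was lower on both, beside 33.0% and 47.2%. At 72 h against 0 h all 7 were higher by CPM, beside 42.5% of genes, and 6 by TPM, beside 7.48%, Tbx4 being the exception. The rule had chosen the genes on these contrasts, so nothing is read from the counts.

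**Figure D2:**
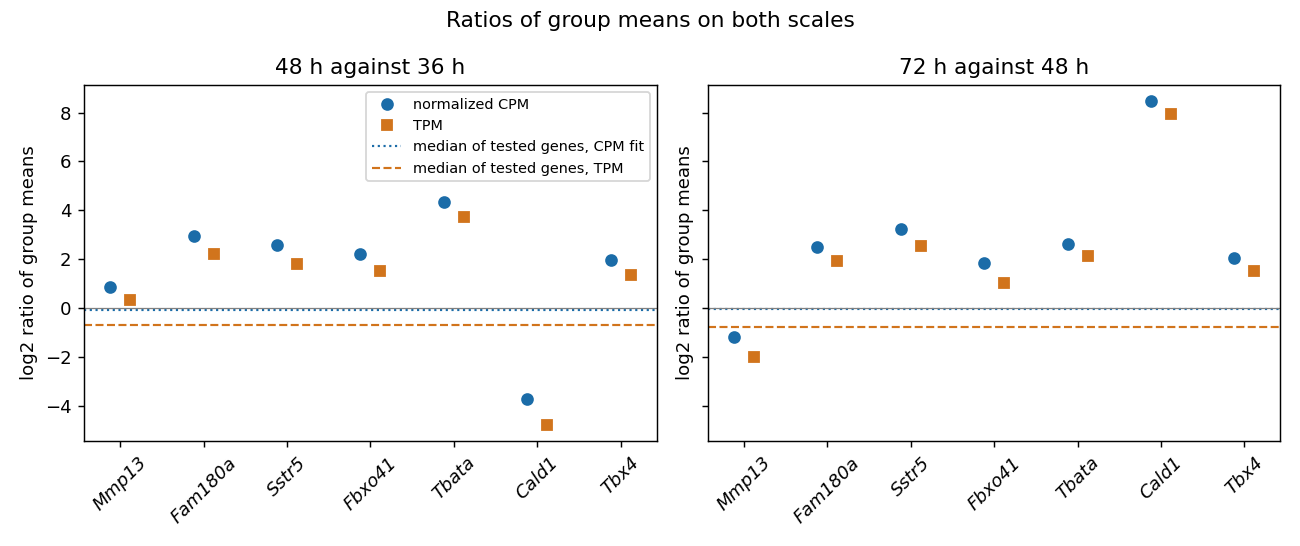
The log2 ratio of group means is plotted for each gene, for 48 h against 36 h (left) and 72 h against 48 h (right), with circles for normalized CPM, squares for TPM and lines for the median of all tested genes on each scale. TPM ratios sat below CPM ratios for every gene, and at 72 h against 48 h Mmp13 alone was below 0.

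Mmp13 (ENSMUSG00000050578.10, GRCm38 chr9:7272514-7283331, plus strand) went from almost nothing at 24 h to 160 counts or more in every library at 36 h. Its estimated counts were 0, 2 and 1 at 0 h (replicates 1, 2 and 3), 0 in all libraries at 12 and 24 h, and 1, 0 and 1 at 12 h with SA. They were 218, 290 and 160 at 36 h, 392, 326 and 444 at 48 h, and 132, 146 and 236 at 72 h. The 3 libraries at 36 h were close together once scaled, at 13.8 ± 0.401 normalized CPM (mean ± SD, n = 3 here and below), which is at least 589-fold above 24 h when the group with 0 counts is taken to hold 3 (the floor used throughout).

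At 48 h Mmp13 was at 25.3 ± 8.82 CPM, 1.83 times its level at 36 h. All 3 libraries were above those of 36 h by CPM, but the TPM values of 2.38, 2.22 and 6.28 overlapped with 3.07, 2.61 and 3.05 at 36 h. Replicate 3 was the high one, and without it the CPM ratio was 1.46 (1.85 without the stromal library of 36 h). At 72 h Mmp13 was at 11.2 ± 3.99 CPM, 0.442 times the 48 h level (0.553 without that replicate), and its TPM values of 0.78, 0.481 and 1.46 lay below all 3 of 48 h. It was the 1 gene of the 7 that was lower at 72 h than at 48 h. Over the 9 libraries from 36 h on, which share the time course, its log2 CPM had negative Pearson correlations with all the others, from -0.164 with Fbxo41 to -0.662 with Cald1.

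Of all tested genes, those most like Mmp13 over the 21 libraries were Xpo7 (Pearson r = 0.995 of log2(CPM + 0.5)), Itpr2 (0.995) and Ern1 (0.994). Xpo7 codes for a nuclear export receptor, Itpr2 for a calcium channel of the endoplasmic reticulum and Ern1 for the stress sensor IRE1. Xpo7 was at 59.5 ± 3.94 CPM at 24 h, 4571 ± 678 at 36 h, 5724 ± 275 at 48 h and 2795 ± 442 at 72 h. By TPM it was highest at 36 h, at 463 beside 380.3 at 48 h and 109.9 at 72 h. All 3 differ from Mmp13 in that they were present at 0 h, Xpo7 at 68.8 ± 0.985 CPM. Such r values are a description of these libraries, which are dominated by the step between 24 and 36 h.

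Mmp13 is a known target of Runx2 in bone and cartilage cells. In the list of 8 bone and cartilage markers, Runx2 was the 1 gene with enough counts to be tested. It was at 22.7 ± 0.849 CPM at 0 h, 4.57 ± 0.297 at 24 h, 138 ± 22.8 at 36 h, 283 ± 36.3 at 48 h and 193 ± 47.5 at 72 h. Like Mmp13 it was thus highest at 48 h, and unlike Mmp13 it had 3311 counts over the 0 h group. By TPM Runx2 was at 10.8 at 0 h, 1.62 at 24 h, 13.2 at 36 h, 19.3 at 48 h and 9.2 at 72 h. Its mean at 72 h was therefore higher than at 0 h by CPM and lower by TPM. Of the other markers of these cells, Ibsp was at 0 in all 21 libraries and Sp7 in 20, and the summed level of the list was 4.38 to 5.09 CPM at 24 h, 123 to 165 at 36 h, 250.2 to 322 at 48 h and 141 to 231 at 72 h, nearly all of it Runx2. A part of Runx2 in the level of Mmp13 was not tested. The neighbours of Mmp13 did not share its course: Dcun1d5, 64.3 kb upstream, fell by 2.19 on the log2 scale at 72 h against 0 h (edgeR, adjusted p = 2.12e-16), and Mmp12, 61.0 kb downstream, had 2 to 15 counts per group.

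**Figure D3:**
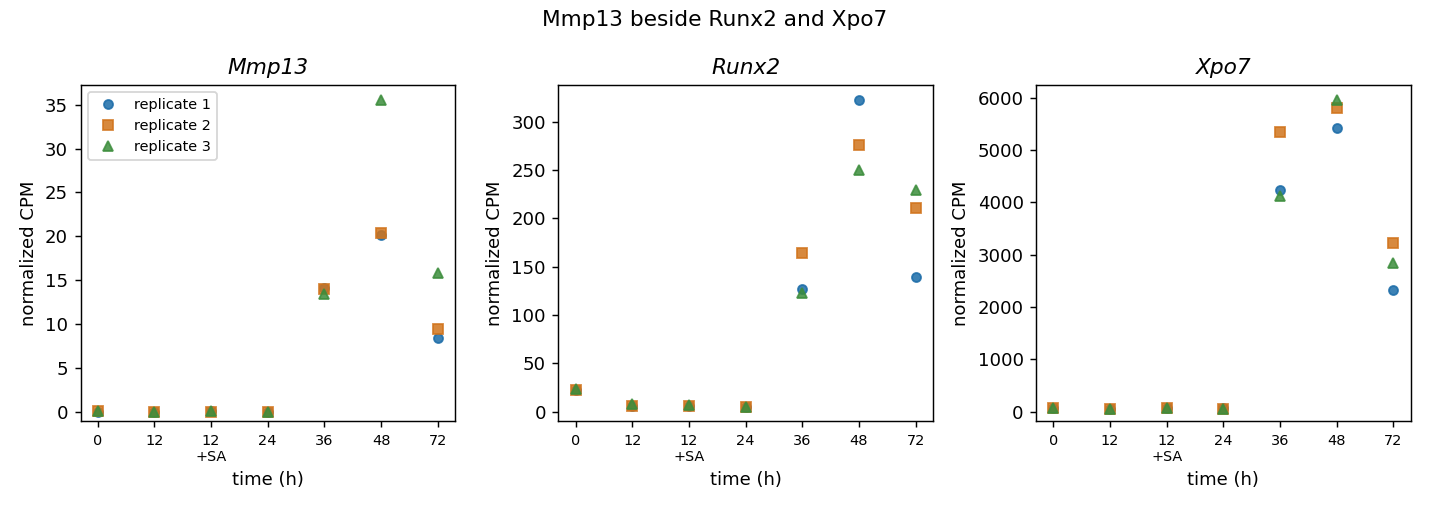
Normalized CPM (linear axes from 0) of Mmp13, Runx2 and Xpo7 in each library by group, with 1 marker shape per replicate. Through 24 h all 3 were below their 36 h levels, though Runx2 and Xpo7 were present from 0 h. At 48 h the means were 25.3 CPM for Mmp13, 283 for Runx2 and 5724 for Xpo7, above those at 72 h.

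Among 27 other matrix metalloproteinases and their inhibitors, 8 had enough counts to be tested. At 72 h against 0 h 3 rose and 4 fell (edgeR quasi-likelihood test, adjusted p at most 0.05), where 89.8% of all genes were called, 43.3% up and 46.5% down. Mmp19 rose by 6.05 ± 0.47 (log2 ± SE; adjusted p = 1.03e-10), from 0.101 to 7.02 CPM, and Mmp14, the membrane-bound activator of Mmp2 and Mmp13, fell by 3.99 ± 0.13 (adjusted p = 6.09e-17). At 36 h against 24 h 2 rose and 4 fell, where 73.2% of all genes were called, and from 36 to 48 h 0 were called by edgeR (1 had an unadjusted p under 0.05, and DESeq2 called 1), where 49.8% of all genes were. From 48 to 72 h 2 rose, Mmp19 by 2.17 ± 0.38 (adjusted p = 4.86e-05) and Mmp14 by 0.39 ± 0.17 (adjusted p = 0.0473; its TPM mean was lower, 0.191 against 0.219), where 59.2% of all genes were called; without replicate 3 of 48 h 1 did. The median log2 change of the 8 was -0.71 at 72 h against 0 h, beside -0.13 for all tested genes.

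Fam180a (ENSMUSG00000047420.8, chr6:35312668-35326141, minus strand) climbed at each step. Over the 12 libraries before 36 h it had 0 to 2 counts each. It had 49, 56 and 8 counts at 36 h, 543, 269 and 67 at 48 h, and 1405, 1420 and 1577 at 72 h. Replicate 3 was the low one at 36 h and at 48 h, but at 72 h it was the highest of the 3.

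The means of Fam180a were 2.18 ± 1.33 CPM at 36 h, 16.7 ± 11.2 at 48 h and 95.5 ± 8.64 at 72 h, with no overlap between neighbouring times on either scale. The ratio of 36 h to 24 h was 299 (exact 95% counting interval 52.6 to 11910, which rests on 1 count), or 249 without the stromal library. The ratio of 48 h to 36 h was 7.65 (9.91 without the stromal library, 10.2 without replicate 3 of 48 h), and that of 72 h to 48 h 5.72 (4.27). Per length Fam180a was second of the 7 at 72 h, with 14.1, 7.73 and 17.2 TPM. The genes most like it were Caps2 (r = 0.995), Tpp1 and Crtc2 (both 0.993). Caps2 went with it in level as well, from 0.0151 CPM at 24 h to 17.6 at 72 h, whereas Tpp1, a lysosomal protease, had 121 CPM already at 0 h. By TPM Tpp1 and Crtc2 were lower at 72 h than at 0 h, at 30.7 against 88.2 and 4.54 against 16.9. Fam180b, the relative of Fam180a, has no row in the tables.

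The gene 4.5 kb downstream of Fam180a on the same strand is Slc13a4, which codes for a sulfate transporter. It had 11 counts over the 3 libraries at 0 h, 2 at 24 h, 6 at 36 h, 22 at 48 h and 53 at 72 h. Its edgeR log2 change at 72 h against 0 h was 3.84. It passed the count filter only through late counts, so no p-value is given. Per length it did not follow, at 0.0513 TPM at 0 h and 0.0609 at 72 h. Mtpn, 182.8 kb upstream, fell by 0.99 at 72 h against 0 h (edgeR, adjusted p = 2.37e-10).

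Sstr5 (ENSMUSG00000050824.11, chr17:25489875-25497288, minus strand) had 0 counts in every library before 36 h. It had 3, 12 and 7 counts at 36 h, 75, 39 and 22 at 48 h, and 348, 494 and 316 at 72 h. The groups did not overlap on either scale, and the means were 0.452 ± 0.223, 2.68 ± 1.06 and 25.1 ± 6.05 CPM. The step from 24 to 36 h was at least 19.4-fold, a bound set by the floor of 3 counts, and was followed by 5.93-fold from 36 to 48 h and 9.34-fold from 48 to 72 h. Without the stromal library of 36 h the first 2 were 24.6 and 4.61, and without replicate 3 of 48 h the last 2 were 6.94 and 7.97. In TPM Sstr5 was at 1.59, 1.27 and 1.48 at 72 h, the narrowest spread of the 7 there relative to its mean.

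The genes most like Sstr5 were Oas1f (r = 0.995), Ccdc106 (0.993) and Phf23 (0.991). Oas1f, of the interferon-induced 2-5A synthetase family, was like Sstr5 at 0 in the means of all groups before 36 h and reached 7.98 CPM at 72 h. Of 20 other genes of somatostatin signalling and its inhibitory G proteins 6 could be tested, none of them a somatostatin receptor or its ligand. At 72 h against 0 h 2 of the 6 rose and 3 fell, near the 89.8% of all tested genes that were called. Gnaz, an inhibitory G protein subunit, rose by 2.61 ± 0.35 (edgeR, adjusted p = 6.71e-07) to 2.41 CPM, though its TPM mean was lower (0.139 against 0.276), whereas adenylyl cyclase 7 (Adcy7) fell by 3.57 ± 0.11 (adjusted p = 1.63e-17) from 285 CPM to 24.0. At 36 h against 24 h 1 rose and 4 fell, from 36 to 48 h 0 rose and 3 fell, and from 48 to 72 h 0 rose and 2 fell, beside 73.2, 49.8 and 59.2% of all genes called. None of the 6 had an unadjusted p under 0.05 for a rise in these last 2 steps. From 48 to 72 h DESeq2 called 1 up, and so did edgeR without replicate 3 of 48 h. The median of the 6 at 72 h against 0 h was -0.33, beside -0.13 for all tested genes. Neighbours of Sstr5 had hardly any counts: Tekt4 had 0 in all libraries, and Sox8 between 0 and 4 per group before 72 h and 14 at 72 h.

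Fbxo41 (ENSMUSG00000047013.15, chr6:85469574-85502994, minus strand) also had 0 counts in every library before 36 h. It had 29, 31 and 11 counts at 36 h, 138, 114 and 73 at 48 h, and 175, 520 and 415 at 72 h. The means were 1.43 ± 0.484, 6.68 ± 0.73 and 24.2 ± 11.7 CPM, each group above the one before it on both scales. It was at least 62.6-fold higher at 36 h than at 24 h, then 4.67-fold and 3.62-fold higher at the next steps. Without the stromal library the first 2 were 54.5 and 5.54, and without replicate 3 of 48 h the last 2 were 4.97 and 3.4. Its level per length was low, 0.488 ± 0.202 TPM at 72 h.

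Cdc42, a small GTPase of the actin skeleton, was the gene most like Fbxo41 (r = 0.994), followed by Rsph9 (0.994) and Ninj1 (0.993). Cdc42 was far more abundant, at 224 CPM at 0 h and 3658 at 72 h. Cct7, which ends 1.1 kb from Fbxo41 on the other strand, rose by 0.95 on the log2 scale from 24 to 36 h (edgeR, adjusted p = 1.73e-06) and by 1.95 at 72 h against 0 h (adjusted p = 1.39e-11), while its TPM mean was lower (85.1 against 385), and Egr4 on the other side had 0 in all libraries. Of the 6 neuron markers 1 had 10 counts in any library, Tubb3, whose 319 CPM at 48 h made up nearly all of that list's sum of 275 to 364. The sum was 30.8 to 36.1 at 24 h, 146 to 252 at 36 h and 89.7 to 103 at 72 h. By TPM it was 28.7 to 36.2 at 24 h and 6.42 to 11.8 at 72 h.

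Of 39 other F-box only genes and SCF core subunits, 34 could be tested. At 36 h against 24 h 14 rose and 10 fell, from 36 to 48 h 8 rose and 11 fell, from 48 to 72 h 8 rose and 12 fell, and over the whole course 19 rose and 14 fell, where 73.2, 49.8, 59.2 and 89.8% of all tested genes were called in these 4 comparisons. The median at 72 h against 0 h was 0.61, beside -0.13 for all tested genes. Fbxo30 rose by 4.79 ± 0.13 (edgeR, adjusted p = 2.81e-18) from 37.3 to 1032 CPM and Fbxo9 by 4.41 ± 0.13 (adjusted p = 1.1e-17). Both were thus well expressed before the switch, which Fbxo41 was not. Both were also higher by TPM (53.8 against 30.2, and 59.6 against 42.8).

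Tbata (ENSMUSG00000020096.20, chr10:61171954-61188841, plus strand) reached by far the highest level of the 7 and was the 1 gene with more than traces early on. Its estimated counts were 29.5, 16.3 and 39 at 0 h, 28.4, 17.4 and 5.63 at 12 h, and 71.9, 18.5 and 8.68 at 24 h. They were 82.2, 133 and 19.2 at 36 h, 2723, 1942 and 161 at 48 h, and 4952, 13295 and 7794 at 72 h. Replicate 3 was lowest at 12, 24, 36 and 48 h but not at 0 or 72 h.

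By normalized CPM Tbata was at 0.566 ± 0.154 at 0 h, 0.699 ± 0.618 at 24 h, 4.45 ± 2.52 at 36 h, 91.3 ± 68.5 at 48 h and 565 ± 277 at 72 h. The step from 24 to 36 h, 6.37-fold by CPM with no overlap (5.73 without the stromal library), was 1.58-fold by TPM with overlapping libraries. The main step was the next, at 20.5-fold (13.3-fold by TPM), and without replicate 3 of 48 h it was 29.4-fold (22.8-fold without the stromal library). That library held 12.8 CPM where the other 2 held 139 and 122, which is 10.2-fold below their mean. The last step was 6.19-fold, or 4.33-fold without it. At 72 h Tbata stood at 113, 187 and 185 TPM, rank 117 of all 22483 genes, and 90.7-fold above 0 h by TPM.

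Over the 9 libraries from 36 h on, Tbata and Fam180a had the highest correlation of any pair of the 7, with r = 0.985. Both were low in replicate 3 of 48 h. In the same library Sstr5 was 1.78-fold and Fbxo41 1.22-fold below the mean of the other 2, while Mmp13 was 1.75-fold above it. Over all 21 libraries the genes most like Tbata were AC155937.1 (r = 0.987), Igfn1 (0.986) and Crtc2 (0.985), all below it in level at 72 h. By TPM Crtc2 was lower at 72 h than at 0 h (4.54 against 16.9), unlike Tbata. Of its neighbours on the other strand, Sgpl1, 24.3 kb upstream, fell by 0.55 at 72 h against 0 h (edgeR, adjusted p = 0.000801) and rose by 0.47 from 48 to 72 h (adjusted p = 0.00672; TPM mean 3.01 against 3.82), and Adamts14, 8.3 kb downstream, had 0 at 0 h and 19 at 72 h.

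Of 13 genes of the neddylation machinery 12 could be tested. Over the whole course 4 rose and 7 fell, near the 89.8% of all genes called, with a median of -0.45 beside -0.13 for all. Ube2f, an E2 enzyme of Nedd8, rose by 3.17 ± 0.11 (edgeR, adjusted p = 9.29e-17; TPM mean 45.4 against 59.2 at 0 h), and Rnf7, a RING partner of cullin 5, fell by 2.44 ± 0.1 (adjusted p = 2.51e-15). In the steps the counts were 5 up and 5 down at 36 h, 2 and 7 at 48 h, and 0 and 7 at 72 h against the time before (1 up by unadjusted p, and 1 by DESeq2), beside 73.2, 49.8 and 59.2% of all genes called. Uba3, a subunit of the Nedd8 E1 enzyme, fell by 0.93 ± 0.08 (edgeR, adjusted p = 5.03e-09) from 48 to 72 h. A link between these genes and Tbata was not tested. The list of 6 germ cell markers had a summed level of 1.62 to 4.68 CPM at 24 h, 1.25 to 1.69 at 36 h, 1.04 to 1.57 at 48 h and 1.67 to 3.3 at 72 h.

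Cald1 (ENSMUSG00000029761.16, chr6:34598500-34775473, plus strand) appeared at 72 h. It had 440, 407 and 428 counts there, against 3, 0 and 1 at 48 h and 0, 5 and 6 at 0 h. Among the 9 libraries at 12 h, 12 h with SA and 24 h no one had more than 1. At 36 h it had 44, 0 and 3 counts, with replicate 1 alone raised. The 72 h libraries were within 27.6 ± 1.12 CPM of each other, the tightest of the 7 relative to the mean at that time, and the ratio to 48 h was 355 by CPM (327 without replicate 3 of 48 h) and 243 by TPM. Against 0 h it was 348-fold by CPM but 13.3-fold by TPM.

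The raised 36 h library is the one with stromal transcripts, and its 2.85 CPM of Cald1 stood beside 43.2 CPM of the 17 stromal markers, a ratio of 0.066. At 72 h those markers summed to 4.44, 2.65 and 4.1 CPM beside 27.9, 26.4 and 28.6 CPM of Cald1, ratios of 6.27, 9.94 and 6.97. In the libraries before 36 h these 17 markers summed to at most 1.8 CPM, and at 48 h to 1.05, 0.841 and 1.27. Col5a1 was left out because it was high in every library. It had 99.4, 120.2 and 160.1 CPM at 36 h and 22.6, 42.4 and 44.7 at 72 h. With Col5a1 the sums were up to 92.7 CPM before 36 h, 143 in the raised library, and 27.0, 45.1 and 48.8 at 72 h. Smooth muscle markers (8 genes) summed to 0.626 to 1.12 CPM at 24 h, 1.25 to 5.64 at 36 h, 2.72 to 6.26 at 48 h and 3.55 to 8.43 at 72 h. By TPM their sum was lower at 72 h, at 0.262 to 0.503 beside 1.3 to 2.8 at 24 h. Of these markers Myh11 had 4.07 CPM and Tagln 1.37 at 72 h, while Lmod1 and Cnn1 were at 0 in 19 of 21 libraries each. Mmp13 was not raised in that 36 h library, at 14.1 CPM beside 14.0 and 13.4. The part of other cell types in the 72 h level of Cald1 was not tested beyond these sums.

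**Figure D4:**
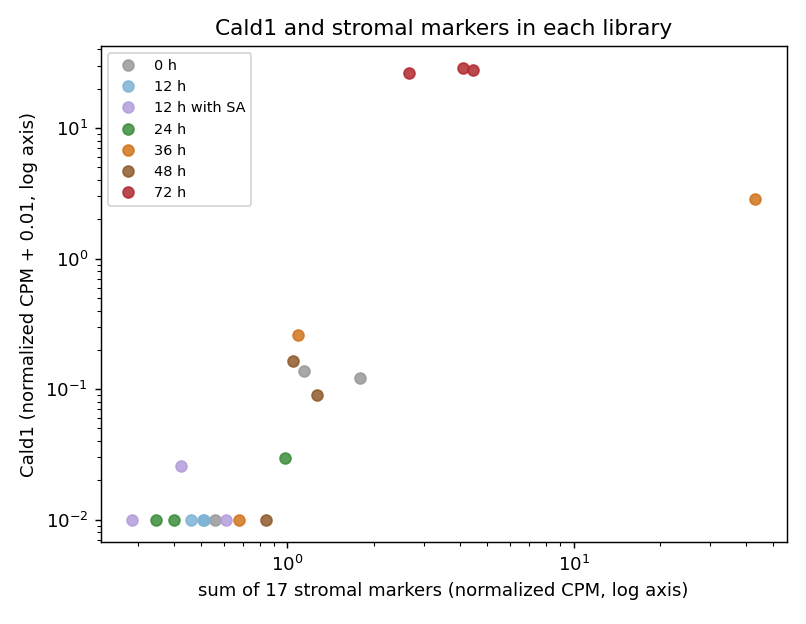
Each point is 1 of the 21 libraries, with the sum of 17 stromal markers on the horizontal axis and Cald1 + 0.01 on the vertical axis, both in normalized CPM on log axes and coloured by group. The 72 h libraries lie at 26.4 to 28.6 CPM of Cald1 with marker sums of 2.65 to 4.44, and 1 library of 36 h lies at 43.2 with 2.85 CPM of Cald1.

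The genes on both sides of Cald1 lie on its strand. Bpgm, the enzyme that makes 2,3-bisphosphoglycerate and so sets the oxygen affinity of hemoglobin, ends 92.9 kb upstream, and Agbl3, a carboxypeptidase of tubulin, starts 5.0 kb downstream. Agbl3 had 0 counts in every library before 72 h and 11, 12 and 16 counts at 72 h. It passed the count filter only through those 72 h counts, so a rise was the only possible outcome and no p-value is given. Per length it was at 0.0543 ± 0.0103 TPM at 72 h. Bpgm rose earlier, by 4.85 on the log2 scale from 24 to 36 h (edgeR, adjusted p = 1.15e-16). From 48 to 72 h it rose by 0.59 (edgeR, adjusted p = 6.07e-05), where its TPM mean was lower (331 against 398). Whether reads pass from 1 gene into the next was not tested.

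**Figure D5:**
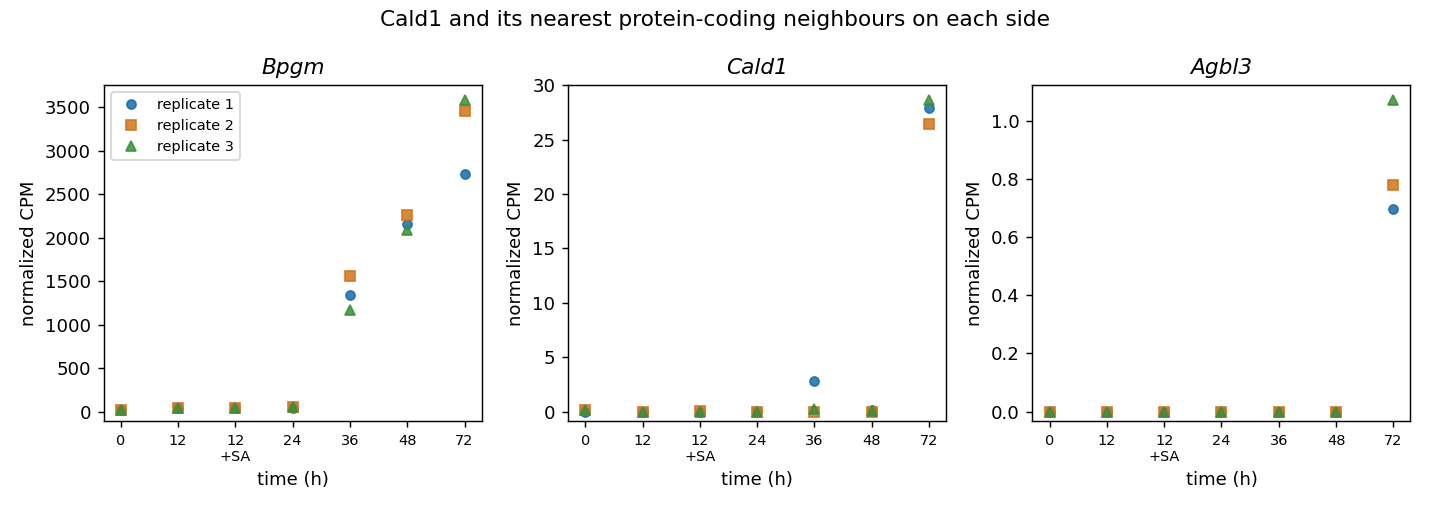
Normalized CPM (linear axes from 0) of Bpgm, Cald1 and Agbl3 in each library by group, with 1 marker shape per replicate. Bpgm was at 1164 CPM or more in each library from 36 h on, whereas Cald1 (27.6 CPM) and Agbl3 (0.848 CPM) were high at 72 h, apart from the 36 h library of Cald1 at 2.85 CPM.

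The genes most like Cald1 were Chga (r = 0.982), Gpx3 (0.982) and Synpo (0.975), all of them at 2.52 CPM or less at 72 h. Of 26 other actin filament regulators and partners of caldesmon 17 could be tested. At 36 h against 24 h 9 rose and 3 fell, or 7 and 4 without the stromal library, and from 36 to 48 h 1 rose and 7 fell, or 2 and 6. From 48 to 72 h 5 rose and 7 fell, or 2 and 5 without replicate 3 of 48 h. Over the whole course 9 rose and 5 fell, with a median of 0.63 beside -0.13 for all tested genes. Of all genes 73.2, 49.8 and 59.2% were called in the 3 steps and 89.8% over the whole course. Tpm1, a tropomyosin of the red cell membrane skeleton, rose by 3.71 ± 0.12 (edgeR, adjusted p = 7.03e-17) from 65.9 to 860 CPM, and Flna, which cross-links actin, fell by 4.38 ± 0.17 (adjusted p = 1.17e-15).

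Tbx4 (ENSMUSG00000000094.12, chr11:85886422-85916097, plus strand) was the weakest of the 7. It had 4.01, 3 and 7.04 estimated counts at 0 h and 0 to 3 in each library at 12 h, with or without SA, and at 24 h. It had 4, 2.01 and 0 at 36 h, 3.01, 12 and 6.01 at 48 h, and 33.4, 23 and 32.1 at 72 h. By CPM the 72 h libraries, at 1.92 ± 0.367, were above all others, 4.15-fold over 48 h (4.23 without replicate 3 of 48 h) and 20.3-fold over 0 h. By TPM they held 0.192, 0.0767 and 0.159, which overlapped with 0.0635, 0.0634 and 0.114 at 0 h, and the ratio of means was 1.77. Tbx4 was therefore neither silent in progenitors nor higher at 72 h on both scales.

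The genes most like Tbx4 were Hhipl2 (r = 0.98), Cmtm4 and Igdcc4 (both 0.975), and in counts this sparse such an r says little. Of 16 other T-box genes 6 could be tested, and at 72 h against 0 h 4 rose and 2 fell, with a median of 1.73 beside -0.13 for all. Being called was common, at 89.8% of all tested genes. A gene near 0 at 0 h passes the count filter only through later counts, which can raise the median of so few genes. Tbx6, a factor of the paraxial mesoderm, is such a gene. Its edgeR log2 change at 72 h against 0 h was 10.12 ± 0.24, given without a p-value for that reason. It had 7 counts over the 3 libraries at 0 h and 2660 at 72 h, or 57.6 ± 4.61 CPM, and by TPM it went from 0.0612 to 5.06, well above Tbx4. It rose at every step, by 4.59 ± 0.19 from 24 to 36 h, 0.91 ± 0.14 to 48 h and 1.18 ± 0.13 to 72 h (edgeR, adjusted p = 2.04e-14, 1.52e-05 and 1.33e-07). In the list 2 rose and 2 fell from 24 to 36 h, 1 rose and 1 fell from 36 to 48 h (2 and 2 without replicate 3 of 48 h), and 3 rose and 2 fell from 48 to 72 h, beside 73.2, 49.8 and 59.2% of all genes called. Brip1, 142.0 kb downstream of Tbx4 on the other strand, fell by 2.1 (adjusted p = 2.85e-11).

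On the TPM scale falls outnumbered rises in all 6 lists at 72 h against 0 h, where on the count scale they did so in 3. With limma on log2(TPM + 1), 72 h against 0 h gave 1 up and 5 down for the metalloproteinases, 0 and 5 for somatostatin signalling, 3 and 29 for the F-box genes, 0 and 12 for neddylation, 1 and 14 for the actin regulators and 1 and 3 for the T-box genes. By the same test 7.11% of all tested genes were called up and 80.0% down.

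Set in order by TPM at 72 h, Tbata (162 ± 42.4) stood above Fam180a (13.0 ± 4.83), Cald1 (2.61 ± 0.886), Sstr5 (1.45 ± 0.162), Mmp13 (0.907 ± 0.503), Fbxo41 (0.488 ± 0.202) and Tbx4 (0.143 ± 0.0595). Neighbours in this order overlapped in 2 places, Sstr5 with Mmp13 and Mmp13 with Fbxo41. The CPM ratios of 72 h to 48 h without replicate 1 and without replicate 3 of 72 h were 0.498 and 0.352 for Mmp13, 5.92 and 5.43 for Fam180a, and 9.9 and 10.1 for Sstr5. They were 4.59 and 3.35 for Fbxo41, 7.57 and 6.44 for Tbata, 353 and 348 for Cald1, and 3.93 and 3.91 for Tbx4. None of these moved by 1.5 times from the ratio of all libraries. To place the 7 among like genes, all genes with at most 85 counts at 0 h (as many as Tbata) and at least 1.92 CPM at 72 h (as much as Tbx4) were taken, 848 in all with a median of 0.337 TPM at 72 h. In this set Tbata ranked 4 and Fam180a 31, while Fbxo41 ranked 337 and Tbx4 658. The 5 highest others were Isg15 (422 TPM), Ifit1 (270.3), Hbq1b (244), Tmem40 (107) and Hist1h4n (100). Isg15 and Ifit1 are interferon-induced genes and Hbq1b is a globin of the alpha cluster.

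Treatment with SA asked whether blocking heme synthesis in the first 12 h changed any of these genes. None of the 7 was called by the edgeR quasi-likelihood test, and 0 had an unadjusted p under 0.05 by edgeR or by DESeq2, which also called 0. Of all tested genes 0.38% were called, 2 up and 45 down. For 5 of the 7 the counts were too low in both groups to give a ratio, at 3 or fewer per group. Fam180a had 4 counts at 12 h and 2 with SA, a ratio of 0.432 with a 95% counting interval of 0.0391 to 3.01. Tbata had 28.4, 17.4 and 5.63 counts at 12 h and 10.7, 42.4 and 18.0 with SA, and the groups overlapped at 0.336 ± 0.178 and 0.408 ± 0.236 CPM. Its log2 difference was 0.26 ± 1.17 (SE; edgeR, adjusted p = 1.0), so that a change of several-fold either way was not detectable at this depth. In the 6 lists of relatives, with 83 tested entries (Rbx1 is in 2 lists), 0 were called with SA by edgeR or DESeq2, and 4 had an unadjusted p under 0.05 by edgeR.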

How the data were processed

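The authors deposited 2 tables of 22483 genes with 1 column per library: estimated counts per gene, not scaled for depth (78.5% of values whole, tolerance 1e-06), and TPM, which sum to 1000000 per library. The tools named in the submitters' processing notes are STAR 2.5.3a, kallisto and DESeq2, with the builds GRCm38.p5 and mm10; which tool made which table is not given in the sources used here. Per the labels, libraries were strand-specific; whether counting used the strand is not given.

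Estimated counts were rounded and fitted with edgeR 4.0.16 (R 4.3.3; glmQLFit and glmQLFTest, filterByExpr with a minimum count of 10, TMM scaling, 21 libraries in 7 group means, biological coefficient of variation 11.6%). P-values were 2-sided and Benjamini-Hochberg adjusted over 12360 genes, with a threshold of 0.05. Standard errors are approximate, taken from the log2 change and its F statistic. CPM is counts-per-million of TMM-scaled library size. For groups without counts a floor of 3 counts per group was used; ratios against 1 to 3 counts have exact 95% intervals, and both cover counting error only. Alternatives used DESeq2 1.42.0 and limma 3.58.1 on log2(TPM + 1). The fit was also tested on simulated data. Positions are from GENCODE mouse release 21 (GRCm38).

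The members and lists were chosen with earlier results of these data known. Named besides the 7 members are up to 2 called genes per direction of each list of relatives (mean count at least 10), the 3 tested genes with the highest correlation to each member, the nearest protein-coding gene on each side, the 5 highest of the similarly silent genes, and marker genes where a list's sum stood apart. The text names a selection of these. Replicate numbers paired the libraries by their deviations from group means (8257 genes, every correlation above 0.1) for SA against 12 h (0.373 to 0.426) and for 72 h against 48 h (0.296 to 0.325). In the other 3 comparisons at least 1 replicate fell short of this limit. The values were 0.428, 0.0986 and 0.424 for 48 h against 36 h, and 0.269, 0.332 and 0.00908 for 36 h against 24 h. For 72 h against 0 h they lay between -0.0351 and 0.0384. The labels call the 3 libraries of a group biological replicates.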

Additional observations from a re-analysis of the deposited data

How the results depend on the processing

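With SA 47 genes were called. The count was 74 with no count filter, 84 with the replicate number as a block (replicates are paired there), 465 with the compared libraries alone, 151 by DESeq2, 16 with limma on log2(TPM + 0.1) and 114 with limma on all genes above 0 in 3 libraries. With 1 library left out it lay between 11 (without SA replicate 2) and 31 (without replicate 1 of 12 h), and it was 18 without replicate 3 of 12 h, 17 without SA replicate 1, and 13 without replicate 2 of 12 h or SA replicate 3; the cause was not tested. No member passed the threshold in the 99 values computed for the members under these alternatives. Sstr5 and Fbxo41 had 0 counts at 12 h with and without SA. Mmp13, Cald1 and Tbx4 had 3 or fewer in each group, and Fam180a had 4 at 12 h and 2 with SA. Such genes could hardly have been called, so these values say little except for Tbata. For the 4 late comparisons the counts of called genes stayed within 1.5 times, and the replicate block changed them little (7470 against 7322 at 72 h against 48 h). Of 415 late values of the members 292 stayed within their spread and 123 moved, and of the 84 on the TPM scale 72 moved. By the labels used 0 were reversed, but this does not mean that no sign changed. Tbx4 at 36 h against 24 h went from 1.86 (log2) to -0.04 with limma on log2(TPM + 0.1). Of 48 counts of relatives without the doubted libraries 7 moved. That alternative was chosen after seeing the data. Depth limits the early groups, where 6 of the 7 genes had at most 14 counts per group.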

Other observations

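The number of estimated counts behind 1 TPM, relative to the median gene of the same library, describes the transcript length that the authors' tables imply for a gene. For Tbata it was 0.300, 0.306 and 0.306 at 0 h, 0.281, 0.275 and 0.281 at 36 h, 0.256, 0.249 and 0.241 at 48 h and 0.241, 0.225 and 0.231 at 72 h, so that every library from 48 h on was below every earlier one with at least 10 counts. For Fbxo41 it was 3.07, 3.00 and 3.00 at 36 h and 3.33, 3.40 and 3.29 at 72 h. For Cald1 it was 0.622 in the 36 h library with stromal transcripts and 0.709, 0.778 and 0.855 at 72 h. For Sstr5 it stayed between 1.18 and 1.23. Mmp13 had 0.858, 0.854 and 0.844 at 36 h and 0.931, 0.962 and 0.887 at 72 h. Whether these shifts come from the transcripts of a gene or from the libraries was not tested.

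Other marker lists had these summed levels at 72 h, beside those at 0 h. Macrophage markers (7 genes) had 8.87 to 11.5 CPM, beside 0.482 to 0.63. Mast cell markers (6) had 32.0 to 35.9, beside 6.55 to 8.65, of which Mcpt4 made up 28.5 at 72 h. Megakaryocyte markers (7) had 666 to 1185, beside 17.5 to 22.1, of which Itga2b, also an early erythroid gene, made up 800.3, and Ppbp was at 0 in all libraries. Neutrophil markers (6) had 5.77 to 7.81, beside 0.0 to 0.0286, with S100a8 and S100a9 at 0 in all libraries. Endothelial markers (6) had 0.935 to 1.39, beside 0.037 to 0.102, and lymphocyte markers (4) 0.127 to 0.267, beside 0.037 to 0.0762. Islet and pituitary markers (5) had 0.648 to 1.65, beside 0.102 to 0.241, and pluripotency markers (5) 0.463 to 2.58, beside 0.174 to 0.286. By TPM the macrophage sum was lower at 72 h, at 0.378 to 0.675 beside 0.814 to 1.11. So were the mast cell sum (4.25 to 8.42 beside 16.6 to 22.8) and the lymphocyte sum. The megakaryocyte and neutrophil sums were higher by TPM too, and the endothelial, islet and pituitary, and pluripotency sums overlapped.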
